A study of Mus musculus with 6 samples.

Results

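Genes of inflammation and the acute phase, each described as a target of the transcription factor NF-kB, were followed across 6 one-colour Agilent arrays of sorted mouse thymic cells. These 9 genes are the serum amyloid A genes Saa1, Saa2 and Saa3, the prostaglandin synthase gene Ptgs2, the chemokine genes Cxcl1 and Cxcl2, the cytokine genes Il6 and Il1b, and the adhesion gene Icam1. All 9 were found among the 20866 genes named on the array, each through 1 probe. They were chosen by their function together with their measured levels in the 3 populations and their genotype difference in each, so those values are given as a description, without a test.

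The study compared mice lacking both TNFalpha and RelA with mice lacking TNFalpha only, all of C57BL/6 strain and 1.5 to 2 weeks old. By the labels, every group therefore lacks TNF, itself an inducer of NF-kB, and only the double knockout also lacks RelA, the p65 subunit of NF-kB. The sort gave 3 populations per genotype. CD4+CD25hi thymocytes are rich in regulatory T cells. Epithelial cells of the thymus were taken as CD45-EpCAM+. The CD45+EpCAM- fraction of the stroma holds haematopoietic cells such as macrophages and dendritic cells. RNA came from pools of 5 mice for the thymocytes and of 10 thymi for each stromal fraction. Each of the 6 groups had 1 array, so no difference between genotypes has a replicate check, and the number of arrays limits the precision.

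NF-kB dimers rest in the cytoplasm until receptors for microbial products, interleukin 1 or members of the TNF family release them. RelA-containing dimers then bind kappa B sites and switch on genes that recruit and hold leukocytes. Serum amyloid A proteins are lipid-binding proteins of the acute phase, made in liver and by several epithelia. In the thymus, NF-kB signalling downstream of RANK, CD40 and the lymphotoxin receptor is known for its part in the formation of medullary epithelium.

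The 250 bases before the annotated start are shown for the 6 genes that have a measured or bounded genotype difference in epithelial cells, because these genes carry the main result below. They are RefSeq sequences of build GRCm38.p6, written 5' to 3' on the gene's own strand. Capitals mark matches to 3 motifs, searched on both strands: a kappa B form of GGG and TTCC with any 3 bases between them, a shorter kappa B form GGANNTTCC, which can overlap the first, and the C/EBP form TTGCNNAA. C/EBP proteins are partners of NF-kB at acute-phase genes. The positions are, for Saa1, chr7:46742981-46743230 (minus strand), for Saa2, chr7:46751583-46751832 (plus strand), for Saa3, chr7:46715677-46715926 (minus strand), for Ptgs2, chr1:150099781-150100030 (plus strand), for Cxcl1, chr5:90890995-90891244 (plus strand), and for Icam1, chr9:21015690-21015939 (plus strand).
Saa1: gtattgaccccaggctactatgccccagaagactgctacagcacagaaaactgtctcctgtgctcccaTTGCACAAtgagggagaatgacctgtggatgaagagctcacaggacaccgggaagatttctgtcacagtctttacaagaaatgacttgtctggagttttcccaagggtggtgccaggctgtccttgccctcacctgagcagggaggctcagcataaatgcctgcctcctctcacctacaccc
Saa2: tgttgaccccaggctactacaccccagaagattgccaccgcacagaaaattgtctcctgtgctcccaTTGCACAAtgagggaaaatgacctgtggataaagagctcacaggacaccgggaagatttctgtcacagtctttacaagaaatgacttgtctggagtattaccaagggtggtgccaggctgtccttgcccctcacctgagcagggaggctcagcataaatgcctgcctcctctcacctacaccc
Saa3: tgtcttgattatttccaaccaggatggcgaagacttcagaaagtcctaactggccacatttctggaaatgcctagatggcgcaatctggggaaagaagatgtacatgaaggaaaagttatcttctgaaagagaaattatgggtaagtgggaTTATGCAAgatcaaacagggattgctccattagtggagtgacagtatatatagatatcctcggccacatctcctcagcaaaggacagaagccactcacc
Ptgs2: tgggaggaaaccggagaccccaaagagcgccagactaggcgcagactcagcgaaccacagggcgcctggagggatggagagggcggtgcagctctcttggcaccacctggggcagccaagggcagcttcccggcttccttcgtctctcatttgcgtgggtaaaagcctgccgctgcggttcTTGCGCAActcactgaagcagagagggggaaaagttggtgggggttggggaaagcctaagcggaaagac
Cxcl1: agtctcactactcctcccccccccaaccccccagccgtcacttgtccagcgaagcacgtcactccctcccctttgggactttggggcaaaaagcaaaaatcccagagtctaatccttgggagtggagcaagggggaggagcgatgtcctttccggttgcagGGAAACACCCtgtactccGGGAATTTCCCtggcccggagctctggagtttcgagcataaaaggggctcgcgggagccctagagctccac
Icam1: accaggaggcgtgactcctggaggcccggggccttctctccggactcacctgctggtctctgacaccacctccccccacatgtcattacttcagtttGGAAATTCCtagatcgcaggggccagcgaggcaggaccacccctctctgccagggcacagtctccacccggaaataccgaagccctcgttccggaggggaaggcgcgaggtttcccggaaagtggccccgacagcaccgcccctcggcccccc

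A kappa B match stood in 4 of the 9 windows, those of Cxcl1, Cxcl2, Il6 and Icam1, whereas 6.92% of 27025 promoter windows of this length hold one. The Cxcl1 and Cxcl2 windows both held the letters GGGAATTTCC, starting 71 and 97 bases before the start. In Il6 the match GGGATTTTCC began 44 bases before the start, and in Icam1 GGAAATTCC began 153 bases before it. A C/EBP match stood in 5 of the 9 windows, those of all 3 Saa genes, Ptgs2 and Il6, against 9.55% of all windows. The 9 genes were chosen as described targets of NF-kB, so nothing is read from these shares. No match says only that these letters are absent from the window, as for Il1b, which had none of the 3 motifs. The Saa1 and Saa2 windows were 94.8% identical, at 238 of 251 aligned columns, whereas Saa1 and Saa3 were 52.2% identical. Near-identical genes can share signal on an array, and the current symbols Saa1 and Saa2 have each served as a synonym of the other, so that the values of these 2 genes are uncertain as to which of them they read.

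**Figure D1:**
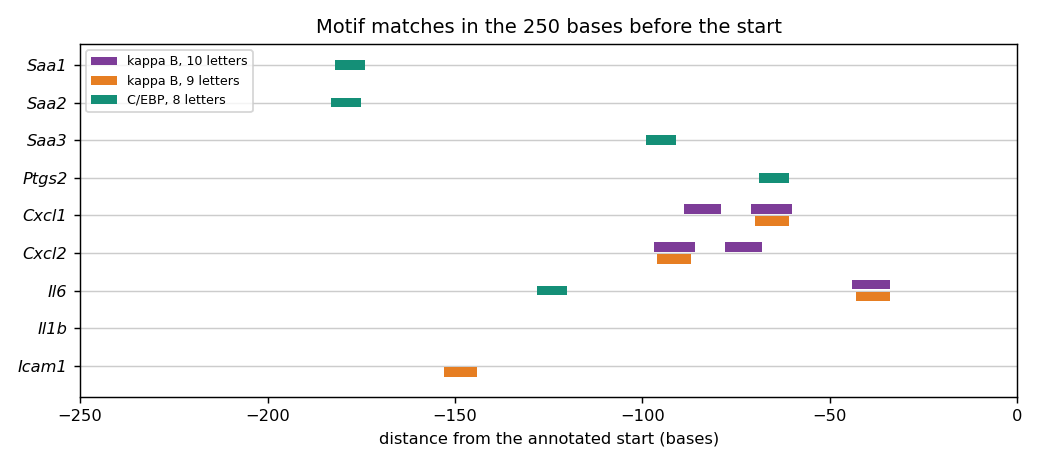
Motif matches in the 250 bases before the annotated start of the 9 genes, with distance from the start in bases on the x axis. Kappa B matches stand in Cxcl1, Cxcl2, Il6 and Icam1, and C/EBP matches in the 3 Saa genes, Ptgs2 and Il6.

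Values are levels, the log2 processed signal minus the 75th percentile of the same array. A level of 0 is thus brighter than 75 percent of probes, and levels of different genes are not compared with each other. The 75th percentile of the signal was 108 on the double-knockout array of epithelial cells, the dimmest, and lay between 272 and 675 on the other arrays. Rela, the gene removed, had levels of 2.66 in the double knockout and 4.52 in the TNF knockout in CD4+CD25hi thymocytes. In epithelial cells its levels were 1.81 and 3.84, and in CD45+EpCAM- cells 3.30 and 4.04, in the same order of genotypes. The Tnf probe, in a gene that every group is labelled as lacking, was well above background on 5 of 6 arrays. Its levels were -0.78 in the double knockout and -0.64 in the TNF knockout of CD4+CD25hi thymocytes, -2.71, which was dim, and -1.49 in epithelial cells, and -0.64 and -0.57 in CD45+EpCAM- cells. Where the Rela and Tnf probes lie relative to the deleted parts was not analysed here, so neither settles the labels. Each population lay on its own slide, shared by both genotypes, so that population and slide cannot be told apart. Foxn1, Psmb11 and Krt8, which mark thymic epithelium, had levels of 3.39, 2.48 and 6.44 on the double-knockout epithelial array, and Foxp3, which marks regulatory T cells, had a level of 4.79 in double-knockout CD4+CD25hi thymocytes. The macrophage gene C1qa, at 1.49, and the dendritic cell gene Itgax, at -0.54, were both well above background in double-knockout CD45+EpCAM- cells. Cd3e, a T cell receptor subunit, also stood at 5.77 there and at 4.87 in double-knockout epithelial cells, so neither stromal fraction was free of T-lineage RNA.

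By the scanner's own test, 5 of the 9 genes were well above background in double-knockout epithelial cells, against all 9 in TNF-knockout epithelial cells. The number was 3 in CD45+EpCAM- cells of either genotype, and 2 in CD4+CD25hi thymocytes of either genotype. Saa1 and Icam1 were the 2 genes above background on all 6 arrays, and Il1b was the third in CD45+EpCAM- cells. Of all 20866 genes, 57.0% were above background on the double-knockout epithelial array and 75.6% on its TNF-knockout partner. In the same order of genotypes, the shares were 68.8% and 66.6% in CD45+EpCAM- cells and 59.9% and 61.0% in CD4+CD25hi thymocytes.

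**Figure D2:**
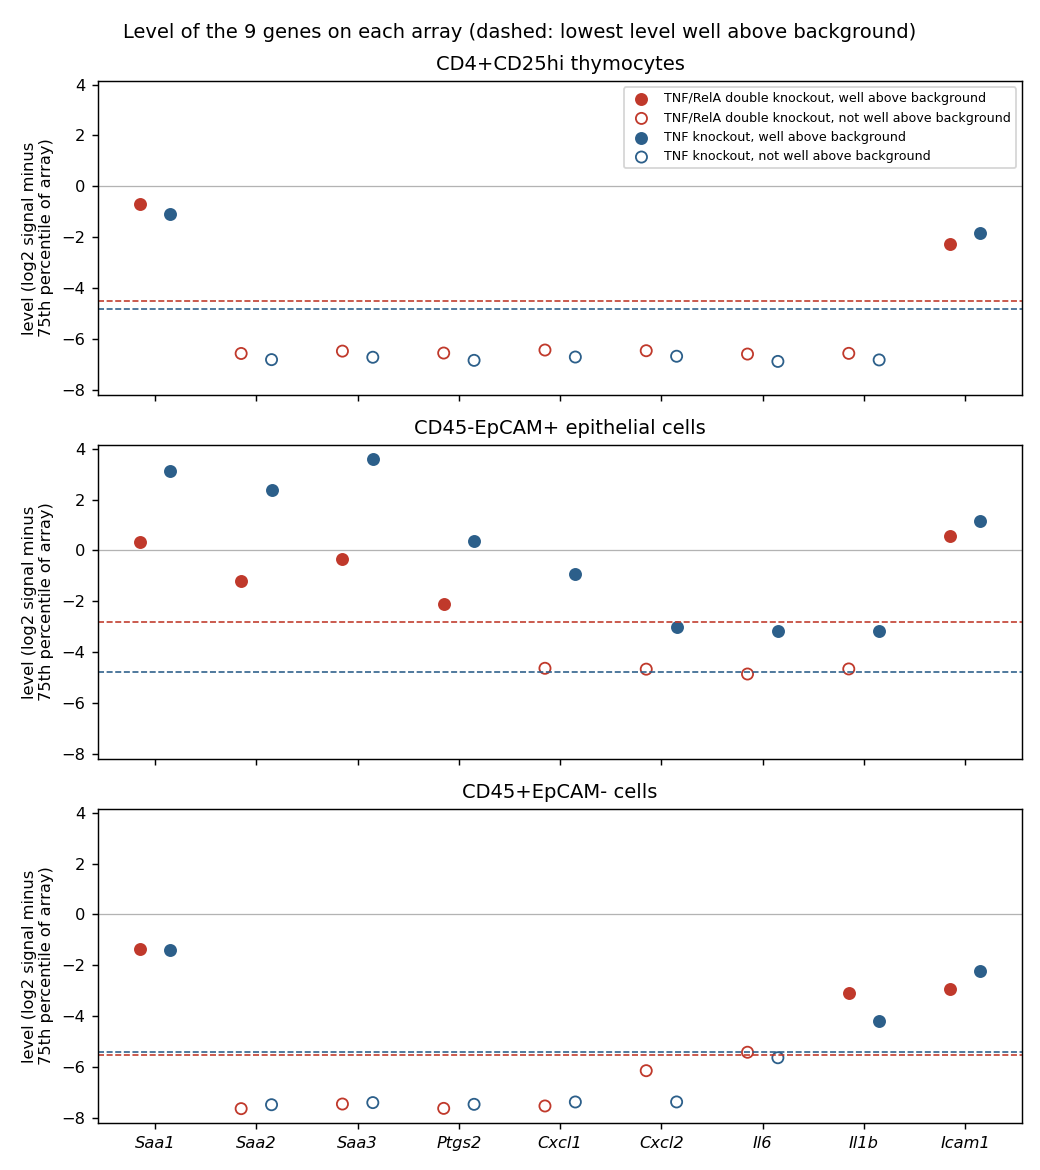
Level of each of the 9 genes on each array, with log2 signal minus the array's 75th percentile on the y axis. Filled points were well above background and open points were not, and the dashed line of each colour is the lowest level well above background on that array. Only in the epithelial panel do the Saa2, Saa3, Ptgs2 and Cxcl1 points of the TNF knockout lie far above the line.

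The 3 acute-phase genes stood far lower in epithelial cells without RelA. Saa3 had a level of -0.35 in double-knockout epithelial cells and 3.58 in TNF-knockout epithelial cells, a signal of 84.5 against 4430 scanner units. Its difference, double knockout minus TNF knockout, was -3.93 on the log2 scale, or 15.3-fold lower. Only 2 of 13208 genes lay lower in this pair. On the other 4 arrays Saa3 was not well above background, with levels between -7.46 and -6.48.

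Saa2 behaved alike on the arrays, with levels of -1.20 in double-knockout and 2.38 in TNF-knockout epithelial cells. The difference was -3.59, or 12.0-fold lower, and it too was at background in both other populations. Saa1 had levels of 0.33 in double-knockout and 3.11 in TNF-knockout epithelial cells, a difference of -2.78, or 6.88-fold lower. Unlike the other Saa genes, Saa1 had signal in every population. Its levels were -0.71 in double-knockout and -1.08 in TNF-knockout CD4+CD25hi thymocytes, a difference of 0.36, and -1.35 and -1.38 in CD45+EpCAM- cells, a difference of 0.04. Whether the probe reads Saa1 RNA there cannot be told from 1 probe. In bulk samples, fewer cells of a type and less RNA per cell cannot be told apart, and this holds for every difference below.

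Ptgs2, the inducible cyclooxygenase that makes the precursor of prostaglandins, was lower in the same cells. Its probe is printed 10 times on the array, which gives a measure of the error within an array. In double-knockout epithelial cells the 10 spots had a mean level of -2.12 ± 0.20 (SD over spots) and ran from -2.52 to -1.87. In TNF-knockout epithelial cells they had a mean level of 0.37 ± 0.05 and ran from 0.29 to 0.44. The spots of the 2 arrays did not overlap, and the difference was -2.49, or 5.61-fold lower. This spread is that of the hybridisation and scan and not of mice or pools. With normexp background correction, which pulls dim signals together, the difference was -1.22. In both other populations every used Ptgs2 spot was below the scanner's threshold.

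The chemokine genes Cxcl1 and Cxcl2 encode neutrophil attractants that act through the receptor CXCR2. Cxcl1 had a level of -4.64 on the double-knockout epithelial array, not well above background, and -0.93 on the TNF-knockout epithelial array. Set against the lowest level well above background on the dim array, -2.82, Cxcl1 was at least 3.71-fold lower in the double knockout. With normexp correction this bound shrank to -0.51 on the log2 scale, short of 2-fold. Cxcl2 had a level of -4.67 in double-knockout epithelial cells, not well above background, and -3.01 in TNF-knockout epithelial cells, where it was. Because -3.01 lies under the floor of the dim array, Cxcl2 has no fold. Neither chemokine gene was well above background on the other 4 arrays, where their levels lay between -7.54 and -6.15.

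The cytokine genes Il6 and Il1b were near the limit of detection. Il6, whose product drives the acute-phase response of the liver, had levels of -4.86 in double-knockout and -3.16 in TNF-knockout epithelial cells, and only the second was well above background. It has no fold for the same reason as Cxcl2, and in CD45+EpCAM- cells its levels of -5.42 in the double knockout and -5.64 in the TNF knockout were both called dim. Il1b, which encodes a pyrogenic cytokine of myeloid cells, is also printed 10 times. In epithelial cells 0 of 10 Il1b spots passed the scanner's test in the double knockout, at a mean of -4.67 ± 0.28 (SD over spots), and 10 of 10 in the TNF knockout, at -3.16 ± 0.15. The spots of the 2 arrays did not overlap, but the level of -3.16 lies under the floor of the dim array, so that no fold is given.

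Within CD45+EpCAM- cells, Il1b went the other way. The mean level of its 10 spots was -3.08 ± 0.10 (SD over spots) in the double knockout and -4.20 ± 0.15 in the TNF knockout, and the ranges, -3.30 to -2.94 and -4.41 to -3.89, did not overlap. The difference was 1.13, or 2.19-fold higher. It was 0.95 with quantile normalization and 0.41 with normexp correction, both under 2-fold. For Il1b as for Ptgs2, the spread over spots is that of the hybridisation and scan and not of mice or pools. Over probes printed 5 or more times, the median SD was 0.056 and 0.060 on these arrays, so small shifts can separate spots. In CD4+CD25hi thymocytes no Il1b spot passed.

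**Figure D3:**
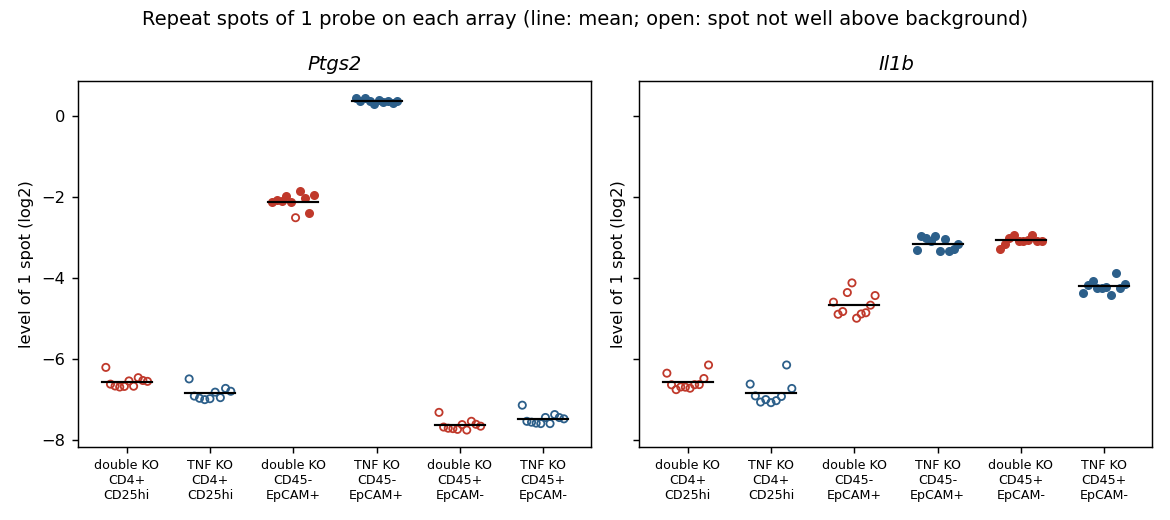
Level of each usable spot of the Ptgs2 and the Il1b probe on each array, with the double knockout left of the TNF knockout in each population. Lines are means over 9 or 10 spots, and open points are spots not well above background. The epithelial clusters of Ptgs2 and the CD45+EpCAM- clusters of Il1b do not overlap between genotypes. Spots show the spread within an array and not that of mice or pools.

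Icam1, which encodes the ligand of the leukocyte integrins LFA-1 and Mac-1, was lower in the double knockout in all 3 populations, by less than 2-fold in each. Its levels in CD4+CD25hi thymocytes were -2.28 in the double knockout and -1.82 in the TNF knockout, a difference of -0.46. In epithelial cells they were 0.55 and 1.16, a difference of -0.61, and in CD45+EpCAM- cells -2.92 and -2.24, a difference of -0.68. Icam1 has a single probe. Different probes of 1 gene disagreed on this difference with an SD of 0.22, 0.32 and 0.21 in these populations, which leaves out the spread between mice or pools. With normexp correction the differences were -0.14, -0.66 and -0.41.

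Counted over the 9 genes, 5 were at least 2-fold lower in double-knockout epithelial cells, 1 was lower by less than 2-fold, and 3 had no fold. Among all 13208 genes with a fold in this pair 9.3% were at least 2-fold lower and 5.1% higher. In CD45+EpCAM- cells 1 of the 9 genes was at least 2-fold higher and none lower, where 1.82% of 14588 genes were higher and 2.08% lower. Of the 9 genes none was 2-fold apart in CD4+CD25hi thymocytes; over all 12936 genes with a fold there, the shares were 1.28% for lower and 1.68% for higher. Nothing is read from these shares, since the same differences chose the genes. A gene that passed only through the brighter array had to be lower on the dimmer one.

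**Figure D4:**
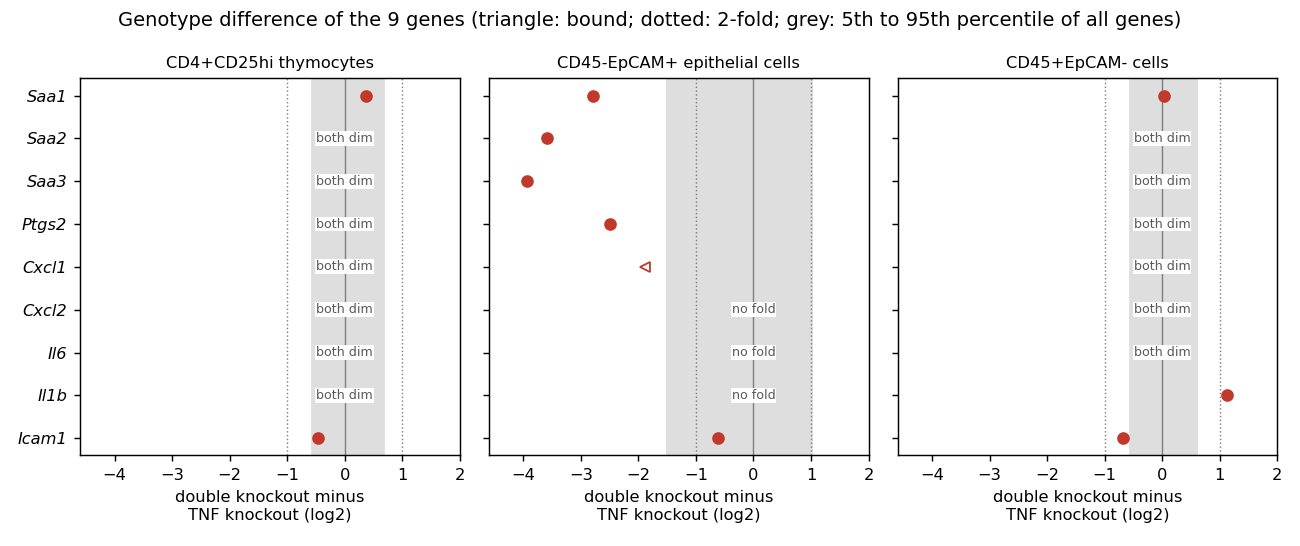
Difference of each of the 9 genes, double knockout minus TNF knockout in log2 units, in each population. The grey band spans the 5th to 95th percentile of all genes, which in epithelial cells runs from -1.51 to 1.01; dotted lines mark 2-fold, and the open triangle marks a bound. Genes marked "both dim" were not well above background on either array, and "no fold" marks a bright side under the floor of the dim array. Saa1, Saa2, Saa3, Ptgs2 and Cxcl1 lie left of the band in epithelial cells.

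Populations were also set side by side within each genotype. In the double knockout 5 of the 9 genes were at least 2-fold higher in epithelial cells than in either other population, whereas 27.8% of all genes were so against CD4+CD25hi thymocytes and 27.1% against CD45+EpCAM- cells. Saa3 was at least 17.9-fold higher in epithelial cells than in CD4+CD25hi thymocytes and at least 36.5-fold higher than in CD45+EpCAM- cells. For Icam1 the margins were 7.12-fold and 11.1-fold. Saa1 had a margin of 2.06-fold over CD4+CD25hi thymocytes and 3.19-fold over CD45+EpCAM- cells. Il1b has no fold between epithelial and CD45+EpCAM- cells, since its level of -3.08 in the second lies under the floor of the epithelial array. Against CD4+CD25hi thymocytes, Il1b in CD45+EpCAM- cells was at least 2.71-fold higher, as 11% of all genes were at least 2-fold higher. In the TNF knockout that bound was 1.56-fold, where 11.5% of all genes were at least 2-fold higher. Between CD45+EpCAM- cells and CD4+CD25hi thymocytes of the same genotype, Saa1 and Icam1 were 1.55-fold and 1.56-fold lower in the double knockout and 1.24-fold and 1.34-fold lower in the TNF knockout.

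In the TNF knockout the epithelial cells had the highest level of each of the 9 genes. Against CD4+CD25hi thymocytes they were at least 343-fold higher for Saa3, at least 150-fold for Saa2, at least 37.0-fold for Ptgs2 and at least 15.1-fold for Cxcl1. Saa1 was 18.2-fold and Icam1 7.88-fold higher there. Cxcl2, Il6 and Il1b were at least 3.55-fold, 3.20-fold and 3.22-fold higher. At least 2-fold higher were 30.9% of all genes in this contrast, and 33.7% in epithelial against CD45+EpCAM- cells. In that second contrast all 9 genes were again at least 2-fold higher, from 2.07-fold for Il1b to at least 509-fold for Saa3.

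A list of 21 further acute-phase genes and factors that act on them, Saa4 included, had members at least 2-fold lower and 1 higher in double-knockout epithelial cells. Of 18 with a fold, 8 were at least 2-fold lower and 1 higher, against 9.3% and 5.1% of all genes, with a median of -0.56 against 0.03 for all genes. For 7 of the 18, among them 4 of the 8, the fold is a bound: they were above background in the TNF knockout only and so had to be lower. Of the 11 above background on both arrays 4 were at least 2-fold lower and 1 higher, against 6.36% and 5.28% of all genes above background on both. The fibrinogen chain genes Fgg, at -2.82, and Fgb, at least 5.04-fold lower, were lowest with Itih4, at least 4.54-fold lower. The complement genes C3, with levels of 1.98 in double-knockout and 3.92 in TNF-knockout epithelial cells, and Cfb differed by -1.94 and -1.89. Serpina3n, a protease inhibitor of the acute phase, went the other way, at -0.41 in the double knockout and -3.33 in the TNF knockout, 2.92 higher. Stat3, Cebpb and Cebpd, factors that act with NF-kB on such genes, differed by -0.47, -0.15 and -0.54.

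The same list in CD45+EpCAM- cells had 2 of 9 genes at least 2-fold higher and none lower, where the shares of all genes were 1.82% and 2.08%, with a median of 0.44. These were Hp, the haptoglobin gene, with levels of -0.37 in the double knockout and -2.44 in the TNF knockout, and Lcn2, the gene of the iron-sequestering lipocalin 2, at -0.40 and -2.16. In CD4+CD25hi thymocytes none of 6, 1 of them with a bound, reached 2-fold, where 1.28% of all genes were lower and 1.68% higher. The median difference of the 6 was 0.60, with differences of 0.74 for Cebpb and 0.61 for Lcn2 among them.

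Around Ptgs2, the gene of the phospholipase that frees arachidonic acid, Pla2g4a, had levels of 0.36 in double-knockout and 2.08 in TNF-knockout epithelial cells, a difference of -1.72. Ptgds, the gene of prostaglandin D synthase, had 0.15 and 2.10, a difference of -1.95. The constitutive cyclooxygenase gene Ptgs1 differed by -0.42 and the prostaglandin E synthase gene Ptges by 0.25. Of 11 such genes with a fold in epithelial cells these 2 were at least 2-fold lower and none higher, against 9.3% and 5.1% of all genes, with a median of 0.01, which was -0.24 with the mean over probes and -0.04 with arrays centred on the median of detected probes. Among CD45+EpCAM- cells Ptgs1, at 0.17 in the double knockout and -0.97 in the TNF knockout, and the thromboxane synthase gene Tbxas1, at -0.69 and -1.78, were the 2 of 14 at least 2-fold higher, against 1.82% of all genes. The prostaglandin receptor genes Ptger3 and Ptger4 differed by -0.87 and -0.63 in CD4+CD25hi thymocytes. None of 8 genes, 2 of them with bounds, reached 2-fold there, against 1.28% lower and 1.68% higher among all genes.

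Relatives of Cxcl1 and Cxcl2 were dim. Cxcl5 had a level of -5.15, not well above background, in double-knockout and -1.84 in TNF-knockout epithelial cells, and was at least 1.96-fold lower. Cxcl3 likewise had -4.45 and -2.76, a bound of -0.05 on the log2 scale. Cxcr2, the gene of their receptor, had levels of -2.08 in the double knockout and -2.86 in the TNF knockout of CD4+CD25hi thymocytes, 0.77 higher. The CD45+EpCAM- values were -1.63 and -2.47, 0.84 higher. Of the 7 genes of this list 1 had a fold in CD4+CD25hi thymocytes and 2 in each other population. No measured difference or bound reached 2-fold. Both epithelial values and 1 in CD45+EpCAM- cells are bounds, so the differences of these genes may be 2-fold or more. Among all genes the share at least 2-fold lower or higher ran from 1.28% to 9.3% over these pairs.

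Among genes that act with Il6 and Il1b, 3 of 10 were at least 2-fold lower in double-knockout epithelial cells and none higher, against 9.3% and 5.1% of all genes. They were Il1r2, the decoy receptor for interleukin 1, at -0.48 in the double knockout and 1.07 in the TNF knockout, Casp1, the protease that matures interleukin 1 beta, at 1.50 and 2.70, and Il1rn, the receptor antagonist gene, at -2.39 and -1.24. The signalling receptor gene Il1r1 differed by 0.15, and the receptor genes of interleukin 6, Il6ra and Il6st, by -0.01 and 0.70. Il1r1 was well above background in epithelial cells of both genotypes, at 0.16 in the double knockout and 0.01 in the TNF knockout, and on neither CD4+CD25hi array. In CD45+EpCAM- cells Il18 differed by 0.81 and Il11 by 1.06, and Il11 was the 1 gene of 13 at least 2-fold higher, against 1.82% of all genes. In CD4+CD25hi thymocytes none of 9, 3 of them with bounds, reached 2-fold, where 1.28% of all genes were lower and 1.68% higher. Casp1 differed by 0.95 there.

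Of 8 adhesion genes with a fold in epithelial cells, 2 were at least 2-fold lower and 3 higher. The shares of all genes were 9.3% and 5.1%, and 1 of the 2 lower is a bound. In CD45+EpCAM- cells 1 of 9 was lower and 1 higher, against 2.08% and 1.82% of all genes. In CD4+CD25hi thymocytes 2 of 9 were lower and none higher, against 1.28% and 1.68%. The genes of the integrins that bind ICAM-1 had differences of either sign. Among them 1, Itgam, the alpha chain of Mac-1, was at least 2-fold higher in double-knockout epithelial cells. Its levels were 5.03 in the double knockout and 3.49 in the TNF knockout. Itgal and Itgb2, the chains of LFA-1, differed by 0.25 and 0.56 in epithelial cells, -0.19 and 0.15 in CD45+EpCAM- cells, and -0.12 and -0.15 in CD4+CD25hi thymocytes. Madcam1, the gene of an adhesion ligand for lymphocyte integrins, was at least 2-fold lower in every population. Its levels were -3.28 in the double knockout and -1.56 in the TNF knockout of CD4+CD25hi thymocytes, -0.53 and 1.92 in epithelial cells, and -4.53 and -3.32 in CD45+EpCAM- cells. The mean Madcam1 difference over the 3 pairs was -1.79 (SE 0.28, limma adjusted p = 0.679), with population as a block. Vcam1 was at least 3.36-fold lower in double-knockout CD4+CD25hi thymocytes, differed by 0.23 in epithelial cells, and was 1.13 higher in CD45+EpCAM- cells.

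Other inflammatory NF-kB targets went both ways in epithelial cells. Of 29 with a fold, 9 were at least 2-fold lower and 4 higher in the double knockout, against 9.3% and 5.1% of all genes, with a median of -0.37, and 2 of the 9 are bounds. The lower ones included the chemokine gene Ccl5, at 2.77 in the double knockout and 4.74 in the TNF knockout, Nos2, the inducible nitric oxide synthase gene, at 0.54 and 2.40, and Traf1, an adaptor gene of TNF receptors, at 0.47 and 1.91. Csf2, a growth factor gene for myeloid cells, was at least 3.32-fold lower. Ccl4 stood at -0.10 and -3.16, 3.05 higher in the double knockout. In CD45+EpCAM- cells 4 of 29 were at least 2-fold higher and 2 lower, against 1.82% and 2.08% of all genes. The monocyte attractant genes Ccl7 and Ccl2 differed by 3.18 and 2.63, and the formyl peptide receptor gene Fpr2 by 1.54. Cxcl10 and Traf1 differed by -1.48 and -1.12. In CD4+CD25hi thymocytes none of 21, 1 of them with a bound, reached 2-fold, where 1.28% of all genes were lower and 1.68% higher. The median difference there was 0.21.

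**Figure D5:**
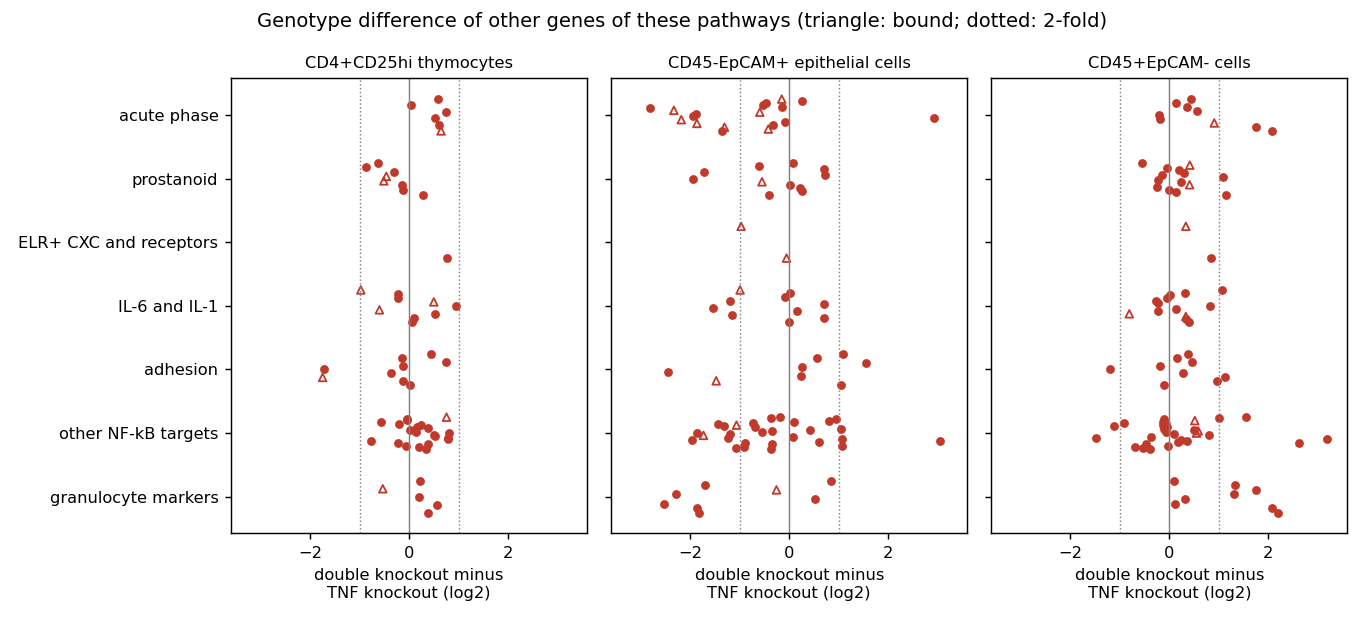
Difference of each gene with a fold, double knockout minus TNF knockout in log2 units, for 6 lists of genes around the 9 and for granulocyte markers. Triangles are bounds and dotted lines mark 2-fold. Granulocyte markers lie mostly left of 0 in epithelial cells and right of 0 in CD45+EpCAM- cells.

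No gene of the array passed limma's test for a genotype effect common to the 3 populations. Of 13743 genes fitted with population as a block, 0 were lower and 0 higher at an adjusted p of 0.05, or 0% each, the smallest adjusted p was 0.381, and 873 had an unadjusted p under 0.05. Among the genes listed around the 9, therefore, none passed. Rela, the gene removed, did not pass either. It differed by -1.86 in CD4+CD25hi thymocytes, -2.02 in epithelial cells and -0.74 in CD45+EpCAM- cells. The 0 calls are thus no measured absence of a genotype effect. Only Saa1, Icam1 and Il1b of the 9 were above background on at least 3 arrays and so fitted. Their mean differences were -0.79, -0.58 and -0.04 over the 3 pairs, given here without a test. Il1b was not well above background on either CD4+CD25hi array or on the double-knockout epithelial array. Its mean thus rests partly on background values and is no measured absence of a difference.

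Markers of other cells differed in the same pairs, and their part in the results was not tested. Of 8 granulocyte markers, 5 were at least 2-fold lower and none higher in double-knockout epithelial cells, against 9.3% and 5.1% of all genes. In double-knockout CD45+EpCAM- cells 5 were at least 2-fold higher and none lower, against 1.82% and 2.08% of all genes. S100a8, a calprotectin gene of neutrophils, had a level of 1.53 in double-knockout epithelial cells, against 3.35 in TNF-knockout epithelial cells, and S100a9, its partner, differed by -1.86. Among CD45+EpCAM- cells both were higher, with S100a8 at 2.40 in the double knockout and 0.21 in the TNF knockout, and S100a9 at 3.87 and 1.81. Neither was well above background in CD4+CD25hi thymocytes. The summed linear level of the 8 genes was 82.8 in the double knockout and 73.7 in the TNF knockout of epithelial cells, 139 and 115 in CD45+EpCAM- cells, and 123 and 106 in CD4+CD25hi thymocytes. Csf3r, with levels between 5.35 and 6.94 on all arrays, made up most of each sum.

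Most macrophage markers had differences above 0 in epithelial cells. Of 6, 5 had a fold there, and 1 was above background in the TNF knockout only and had no fold. Among the 5, 1, Lyz2, was at least 2-fold lower, against 9.3% of all genes. Its levels were -1.51 in the double knockout and -0.08 in the TNF knockout. C1qb was 0.88 and Adgre1 0.79 higher on the log2 scale. The summed level of the macrophage markers was 6.98 in the double knockout and 5.30 in the TNF knockout of epithelial cells. It was 14.7 and 9.14 in CD45+EpCAM- cells, and 1.56 and 1.27 in CD4+CD25hi thymocytes. Of the 3 monocyte markers, Ccr2 was not well above background on either epithelial array. The 2 with a fold there had differences above 0, with a median of 0.55. Their summed level was 17.3 in the double knockout and 9.17 in the TNF knockout. In CD45+EpCAM- cells 1 of the 3 was at least 2-fold lower and none higher, against 2.08% and 1.82% of all genes. The summed level of the 3 there was 10.8 in the double knockout and 21.6 in the TNF knockout, with a median difference of 0.08. Ptprc, which encodes the CD45 used to exclude leukocytes from the epithelial gate, had levels of 0.72 in double-knockout and -0.46 in TNF-knockout epithelial cells. The 4 T cell markers with a fold there had differences above 0, with a median of 0.91 and a summed level of 48.0 in the double knockout and 25.9 in the TNF knockout. None of the 3 B cell markers was above background in double-knockout epithelial cells, against 3 in the TNF knockout. All 3 were too dim there to have a fold. Of all genes above background on the TNF-knockout epithelial array, 24.9% were not so on the dimmer double-knockout array. Beside the higher Il1b of CD45+EpCAM- cells, all 5 dendritic cell markers had differences below 0 there, 2 of them at least 2-fold lower, against 2.08% of all genes. Their summed level was 118 in the double knockout and 122 in the TNF knockout. The same sum was 171 and 155 in CD4+CD25hi thymocytes, and 69.1 from 1 marker in double-knockout epithelial cells. It is therefore not read as dendritic cell content. All 3 B cell markers also had differences below 0 in CD45+EpCAM- cells, with a median of -0.79. Within the epithelial markers, Krt8, Krt5, Foxn1 and Psmb11 differed by 0.06, -0.01, 0.16 and 0.23, whereas Aire, Cldn4 and Epcam differed by -1.90, -1.37 and -0.63.

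By the pattern over the 6 arrays, Cacna2d2, Has2os and Mpv17l2 were most like Saa1, with Pearson correlations of 0.998, 0.997 and 0.997, and Etv6, Fam83g and Yif1b most like Icam1, with 0.999, 0.997 and 0.996. These describe 6 points that share 3 slides. Of the 12949 genes detected on 4 or more arrays, 529 exceeded 0.9 with Saa1 and 1613 with Icam1. Cacna2d2 had levels of -0.86 in double-knockout and 0.52 in TNF-knockout epithelial cells, and Fam83g 1.42 and 2.58. The other 7 genes were above background on too few arrays for this comparison.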

How the data were processed

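Expression was measured on 6 one-colour (Cy3) Agilent arrays, 1 per group. Spot intensity values were deposited as made by Feature Extraction 10.5.1.1, per the file headers (the submitters' processing notes name 9.5), with the background subtracted by that software. The authors' deposited value table holds log2 values whose scaling is not given in the sources used here. Each column equalled the log2 processed signal minus the 75th percentile within 0.05 at 100% of probes. The column medians were -3.72, -3.61, -2.84, -2.72, -3.63 and -3.58.

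Control spots and spots flagged as outliers were left out. The level of a probe is the mean over its spots of log2 processed signal, minus the array's 75th percentile; 39419 of 39429 probes were used. Transcript accessions named 27472 probes with 1 symbol, 35 with several and 11912 with none, through a RefSeq table of GRCm38.p6. The brightest of a gene's probes, by the mean over 6 arrays, stands for it. A gene entered a genotype comparison if either array of the pair had it well above background. For a dim side the array's lowest level well above background was used, or the probe's own level if brighter, giving a bound ("at least"); where that left no difference in the bright side's favour, no fold is given (2605 genes in epithelial cells). Counts at 2-fold take a bound at its own value, so a bound short of 2-fold may stand for a larger difference. With 1 array per group these differences have no test. The common genotype effect was estimated in R 4.3.3 with limma 3.58.1 (population as a block, genes above background on at least 3 arrays, Benjamini-Hochberg adjustment, 2 residual degrees of freedom), and the fit was checked on simulated data.

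The members and gene lists were chosen with earlier results of these data known. Named from each list were up to 5 genes per population with the largest differences, and receptors or enzymes acting on a member's product; some others are named for their role. Markers missing from the named genes were Cd68 and Ly6c2, and of the NF-kB targets Il12b. Alternatives were quantile normalization, centring on the median of detected probes, normexp (offset 50, on median signals, as the files hold no mean signal), genes above background on both arrays, the mean over probes, the deposited table, no filter or 1 population fewer in the common fit and, chosen after seeing the data, another detection flag.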

Additional observations from a re-analysis of the deposited data

Results flagged for a closer look

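Saa1 was lower in double-knockout epithelial cells, with a difference of -2.78 (log2, double knockout minus TNF knockout), and lay above 0 in both other populations, at 0.36 in CD4+CD25hi thymocytes and at 0.036 in CD45+EpCAM- cells. The value of 0.036 lies within the SD of 0.21 between probes of 1 gene in CD45+EpCAM- cells, so no change is read from it. Whether the probe reads Saa1 RNA outside epithelial cells cannot be told from 1 probe. With 1 array per group the difference between populations was not tested.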

How the results depend on the processing

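All 76 recomputed differences of the 9 genes kept their sign, 12 of them moving by more than the spread between probes of a gene, and no result of at least 2-fold reversed. Many of the 76 could hardly move. Each gene has 1 probe, so the mean over probes changed nothing, and the filter on both arrays only drops genes. The deposited table matched the levels used here within 0.05. Quantile normalization, median centring and normexp were the settings that rescaled the values. The 5 genes at least 2-fold lower in epithelial cells became 4 with normexp, 4 with genes above background on both arrays, and 8 with the scanner's flag for a positive and significant signal, under which Cxcl2, Il6 and Il1b have a fold. The 1 gene at least 2-fold higher in CD45+EpCAM- cells became 0 with quantile normalization or normexp and 2 with that flag. With normexp the genes at least 2-fold lower and higher were 18 and 33 in CD4+CD25hi thymocytes and 108 and 66 in CD45+EpCAM- cells, and 571 were lower in epithelial cells; with that flag the 6 counts were 590 and 964, 632 and 849, and 2004 and 2353. With genes above background on both arrays, 97 were lower and 125 higher in CD4+CD25hi thymocytes, 754 lower in epithelial cells and 174 higher in CD45+EpCAM- cells. The cause was not tested beyond the fewer or more genes these filters admit. The common fit called 0 genes in every alternative run. With 1 array per group, no test within a population was possible. The common fit pairs both genotypes of each population, with population, not a replicate, as its block. The dim double-knockout epithelial array, with a floor of -2.82 against -4.78 on its partner, limits what can be said of Cxcl1, Cxcl2, Il6 and Il1b.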
